A study of Mus musculus with 11 samples.

Results

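The genes described are Jchain, Mzb1, Derl3, Pou2af1, Cd79a, Cd79b and Xbp1, a set of 7 genes of antibody-secreting cells and B cells taken by symbol from the 24411 genes of the deposited tables. All 7 were found, and each is given by its expected count in all 11 skin samples. The members were selected on their counts and fold changes in these same samples, so their levels and differences are a description. Expression was measured by sequencing total RNA of mouse back skin in which topical MC903, a vitamin D analog, had produced a dermatitis used as a model of atopic dermatitis. In 4 samples the host had received tdTomato-positive and in 7 samples tdTomato-negative femoral marrow cells, sorted from donors of the genotype Pdgfra-Cre;tdTomato, in which the reporter marks cells whose lineage has expressed the Cre driver. In both groups the hosts were of the strain Tg(act-EGFP)Y01Osb, with a labelled age of 16 to 18 in a unit that the labels do not state, and were exposed to 10 Gy before the transfer into the tail vein. After 6 weeks, 6 applications of MC903 followed, and the skin was collected on day 14, so there is no sample of untreated skin. The labels number the samples without saying that each is a separate animal, and the p-values therefore cover only sample-to-sample spread, which may be technical. What share of the lymphocytes in these skins came from the donor is not given, and B lineage cells of the host that survived irradiation are not marked in these data.

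Plasma cells are the end stage of the B cell lineage and secrete antibody in large amounts. Jchain encodes the small polypeptide that links the units of IgM pentamers and IgA dimers, and Pigr encodes the epithelial receptor that carries these polymers across an epithelium. Mzb1 is a chaperone of the endoplasmic reticulum that helps antibody chains assemble, and Derl3 helps move misfolded chains out of that compartment for degradation. Pou2af1 is a coactivator that joins octamer-binding factors on immunoglobulin promoters. Cd79a and Cd79b form the signalling pair of the B cell receptor and are lower in mature plasma cells than in B cells. Xbp1 is a transcription factor of the unfolded protein response that plasma cells need for secretion, and many epithelial and gland cells express it too.

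The promoters of the 5 members with a window in the RefSeq table for GRCm38.p6 were searched over the 250 bases before the gene start for 4 short motifs on both strands. The motifs were the octamer ATGCAAAT, bound by the partners of Pou2af1, the unfolded protein response cores CCACG and ACGTG, and the E-box CAGGTG. Mzb1 and Cd79b are named only. The windows of Jchain, Derl3 and Xbp1 are printed because Jchain and Xbp1 are the members with enough counts for a test and Derl3 had the most matches. They read 5′ to 3′ on the strand of the gene, with matches in capitals. The windows are chr5:88527898-88528147 (minus strand) for Jchain, chr10:75893148-75893397 (plus strand) for Derl3 and chr11:5520391-5520640 (plus strand) for Xbp1. The genes themselves lie, in the same build, at chr5:88519809-88527897 for Jchain, chr10:75893398-75895941 for Derl3, chr9:51213690-51240079 for Pou2af1, chr7:24897497-24901858 for Cd79a, chr11:106311341-106314562 for Cd79b and chr11:5520641-5525993 for Xbp1.
Jchain: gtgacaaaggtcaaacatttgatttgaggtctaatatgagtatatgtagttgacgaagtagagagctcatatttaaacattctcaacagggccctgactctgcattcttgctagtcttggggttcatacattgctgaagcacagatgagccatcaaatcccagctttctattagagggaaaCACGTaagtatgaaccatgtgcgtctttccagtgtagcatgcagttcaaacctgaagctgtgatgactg
Derl3: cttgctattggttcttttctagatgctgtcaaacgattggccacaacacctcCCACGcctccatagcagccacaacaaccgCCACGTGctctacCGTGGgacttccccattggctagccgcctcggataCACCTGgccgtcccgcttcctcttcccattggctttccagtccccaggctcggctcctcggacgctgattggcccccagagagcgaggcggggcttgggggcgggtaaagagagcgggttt
Xbp1: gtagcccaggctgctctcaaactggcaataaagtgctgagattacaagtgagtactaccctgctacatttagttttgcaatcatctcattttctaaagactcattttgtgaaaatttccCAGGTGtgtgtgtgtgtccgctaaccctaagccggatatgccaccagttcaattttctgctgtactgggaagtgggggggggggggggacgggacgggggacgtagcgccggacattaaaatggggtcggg

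The Derl3 window held CCACG or its reverse complement at 3 places and ACGTG or its reverse complement at 2 overlapping places, which begin at -168 and -167 relative to the start. The CCACG match that begins at -169 overlaps both. The Jchain window held 1 match to ACGTG, on the opposite strand, beginning at -69. Pou2af1 had 2 matches to CCACG and 1 to ACGTG, which overlaps one of them, Cd79a had 1 match to CCACG and 1 to the E-box, and Xbp1 had 1 match to the E-box. The octamer was in none of the 5 windows, and these letters were in 1.61% of the windows of the same length of 27025 genes. CCACG was in 28.2% of those windows, ACGTG in 16.6% and the E-box in 17.1%, so matches to the shorter cores are common. A match describes the letters of a window and is not a bound site.

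**Figure D1:**
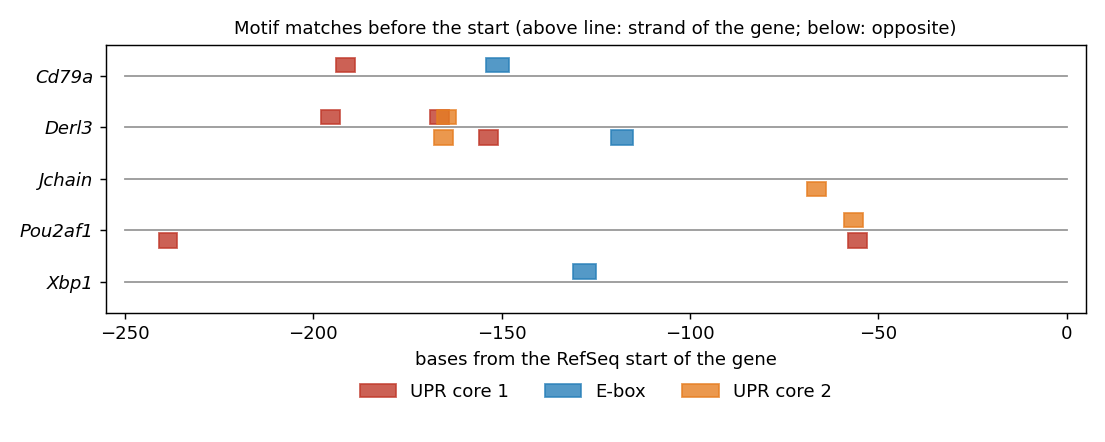
Matches to the searched motifs in the 250 bases before the start of Cd79a, Derl3, Jchain, Pou2af1 and Xbp1; the horizontal axis is the distance from the RefSeq start in bases, boxes above the line are on the strand of the gene and boxes below on the opposite strand. UPR core 1 is CCACG and UPR core 2 is ACGTG; Derl3 has 3 matches to the first and 2 to the second, and no window has the octamer.

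Total expected counts ranged from 7228968 to 9749842 per sample after tdTomato-positive marrow and from 7190752 to 8705435 after tdTomato-negative marrow. At this depth a count of 0 allows up to 3 counts (a one-sided limit, whereas the Poisson intervals given here are two-sided), counting error only. The labelled tissue held its markers, with Krt5, a keratin of basal epidermis, at 4033 ± 653 CPM (SD, n = 4) and 3786 ± 387 CPM (SD, n = 7) in the positive and negative groups (CPM are counts scaled to a common library size of 1000000). One library stood apart in several genes. In negative replicate 1, Pigr, looked at after its values were seen, had 113 counts, against 0 to 1 in the positive samples and 0 to 5 in the other negative samples. The same library held 12 counts of Y-linked genes, against 0 in each other sample. Hair content also varied: genes of growing hair follicles took 0.0627% to 1.61% of the counts in positive samples and 0.0449% to 5.11% in negative samples.

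Jchain had the largest difference between the groups of the 7 genes, without passing the test over all genes. Its expected counts were 76, 311, 165 and 120 in positive replicates 1 to 4. In negative replicates 1 to 7 they were 108, 7, 33, 27, 3, 12 and 26. Every positive sample thus lay above 6 of the 7 negative samples, and the groups overlapped through negative replicate 1, which lay above positive replicate 1. Scaled to depth, the positive samples had 9.47, 39.7, 17.0 and 16.2 CPM, with a mean of 20.6 ± 13.2 CPM (SD, n = 4). The negative samples had a lowest value of 0.404, a median of 3.11 and a highest of 13.9 CPM, with a mean of 3.96 ± 4.62 CPM (SD, n = 7). The exact 95% Poisson interval for the 76 counts of positive replicate 1 was 59.9 to 95.1, and that for the 108 counts of negative replicate 1 was 88.6 to 130. Among the positive samples, the interval of replicate 1 did not reach that of replicate 2, 277 to 348 counts, so their spread was wider than counting error.

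**Figure D2:**
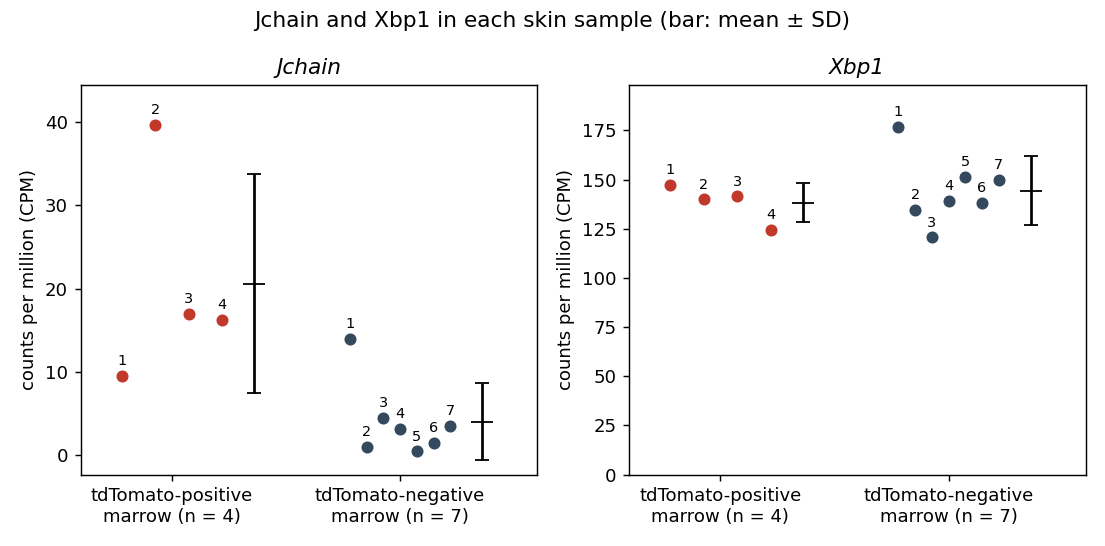
CPM of Jchain (left) and Xbp1 (right) in each sample, tdTomato-positive marrow left of tdTomato-negative marrow; points carry the replicate number and the bar is the mean ± SD. For Jchain, 3 of 4 positive samples lie above all 7 negative samples, while for Xbp1 the groups lie over each other.

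In the fit over all 14588 tested genes, the log2 fold change of Jchain, positive minus negative, was 2.37 ± 0.65 (SE), a 5.17-fold fitted difference. It did not pass, with a Benjamini-Hochberg adjusted p of 0.248 in edgeR's quasi-likelihood test. That test called 0% of all genes. An unadjusted p under 0.05 was found for 2448 genes (16.8%), of which 1029 (7.05%) were higher and 1419 (9.73%) lower after tdTomato-positive marrow, and 0.00343 was the unadjusted p of Jchain. A fitted value at least as high as that of Jchain was found in 4 tested genes, itself included (0.0274%), from which nothing is read since the gene was chosen by it. In 89 genes (0.61%) the groups did not overlap with the positive samples higher, and Jchain was not among them. Without negative replicate 1 the log2 fold change was 3.15, with an adjusted p of 0.098. limma-voom with sample quality weights gave 3.84 with an adjusted p of 0.0211 and called 2093 genes (14.3%), and DESeq2 gave 2.38 with an adjusted p of 0.104 and called 83 genes (0.569%). In whole skin, fewer cells of a type and less RNA per cell cannot be told apart.

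Jchain was also set beside the hair content of each sample. Positive replicate 4, with 1.61% hair counts, had 16.2 CPM of Jchain, between the lowest (9.47) and the highest (39.7) of the remaining positive skins, where hair genes took 0.0627% to 0.335%. Negative replicates 1 and 7, with 0.299% and 0.0449%, had 13.9 and 3.46 CPM, and the other negative samples, with 2.82% to 5.11%, had 0.404 to 4.45 CPM. When a hair score entered the edgeR fit beside the group, Jchain was at 1.78 (log2) and its adjusted p was 0.65. The part of hair content in the difference was not tested beyond this fit.

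Mzb1 and Derl3, the members that act in the endoplasmic reticulum, were near the floor. Mzb1 had 1, 8, 1 and 0 counts in positive replicates 1 to 4 and 2, 0, 5, 3, 0, 0 and 1 in negative replicates 1 to 7. Its highest count fell in positive replicate 2, the sample with the highest Jchain, but the second highest was the 5 counts of negative replicate 3, where Jchain had 33. In GENCODE, an exon of Mzb1 shares bases with a transcript annotated to SPATA24 on the same strand, so these few counts are uncertain. Derl3 had 2, 5, 10 and 6 counts in the positive samples and 4, 6, 3, 10, 9, 9 and 7 in the negative samples. Its means were 0.681 ± 0.329 CPM (SD, n = 4) and 0.875 ± 0.312 CPM (SD, n = 7), and the ranges lay over each other.

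Pou2af1, the coactivator, had 6, 10, 7 and 3 counts in positive replicates 1 to 4, against 8, 1, 2, 2, 1, 1 and 4 in negative replicates 1 to 7. Its highest values in each group, 1.28 and 1.03 CPM, fell in positive replicate 2 and negative replicate 1, which were also the highest samples of their groups for Jchain. The means were 0.787 ± 0.362 CPM (SD, n = 4) and 0.351 ± 0.332 CPM (SD, n = 7), and the groups overlapped. With 26 counts in all positive samples and 19 in all negative samples, it did not pass the filter on low counts. Fitted with no gene filtered out, it was at 1.13 ± 0.55 (log2, SE), and edgeR's adjusted p was 0.369.

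Of the receptor pair, Cd79a had 0, 6, 2 and 0 counts in the positive samples and 1, 0, 1, 2, 2, 0 and 2 in the negative samples. Cd79b had 6, 3, 12 and 6 counts in the positive samples and 6, 0, 3, 4, 6, 5 and 2 in the negative samples. The means of Cd79b were 0.794 ± 0.348 CPM (SD, n = 4) and 0.472 ± 0.285 CPM (SD, n = 7). Neither gene separated the groups. The highest sample was positive replicate 2 for Cd79a, as for Jchain, and positive replicate 3 for Cd79b.

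**Figure D3:**
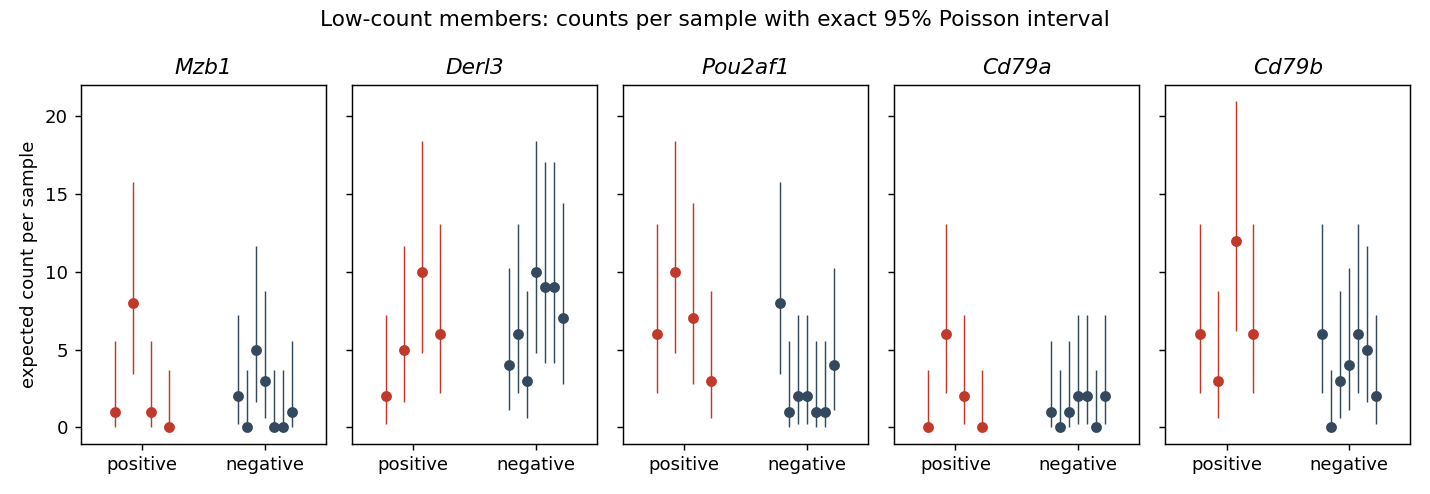
Expected counts of Mzb1, Derl3, Pou2af1, Cd79a and Cd79b in each sample, tdTomato-positive marrow left of tdTomato-negative marrow, replicates in order from left to right; lines are exact 95% Poisson intervals, which cover counting error only. No count exceeds 12, and the groups overlap in all 5 genes.

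Xbp1, the transcription factor, was abundant and level. It had 1182, 1095, 1376 and 921 counts in positive replicates 1 to 4. In negative replicates 1 to 7 it had 1374, 966, 895, 1210, 1123, 1158 and 1127 counts. The means were 138 ± 9.77 CPM (SD, n = 4) and 144 ± 17.6 CPM (SD, n = 7), and all positive samples lay within the range of the negative samples, 121 to 177 CPM. Its fitted difference was -0.06 ± 0.10 (log2, SE), the approximate 95% interval ran from -0.25 to 0.13, and edgeR's adjusted p was 0.763. Its highest value, 177 CPM, was in negative replicate 1.

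Per length, Xbp1 stood highest in every sample, with 98.7 to 114 TPM in positive and 85.7 to 141 TPM in negative samples (TPM are the deposited transcript abundances, relative to effective gene length, which sum to 1000000 in a sample). Jchain came next in the positive samples, with 7.63, 31.9, 14.7 and 13.8 TPM, above the 0.34 to 2.05 TPM spanned there by Derl3 and Cd79b. In the negative samples its median was 2.63 TPM, with a range from 0.32 to 11.9 TPM that included the 0.52 to 1.65 TPM of Derl3. Derl3, Cd79b, Mzb1, Pou2af1 and Cd79a averaged 0.968, 1.29, 0.695, 0.52 and 0.338 TPM in positive samples, and 1.21, 0.743, 0.447, 0.239 and 0.207 TPM in negative samples. In positive samples the ranges of these 5 genes overlapped. In negative samples all 0.52 to 1.65 TPM of Derl3 lay above the 0 to 0.39 TPM of Cd79a, and the ranges of the other pairs overlapped. In positive samples Jchain alone held 7.63 to 31.9 TPM, against 2.27 to 5.59 TPM for the other 5 low members summed. In negative samples it held more than that sum in replicates 1, 3 and 7 and less in replicates 2, 4, 5 and 6.

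**Figure D4:**
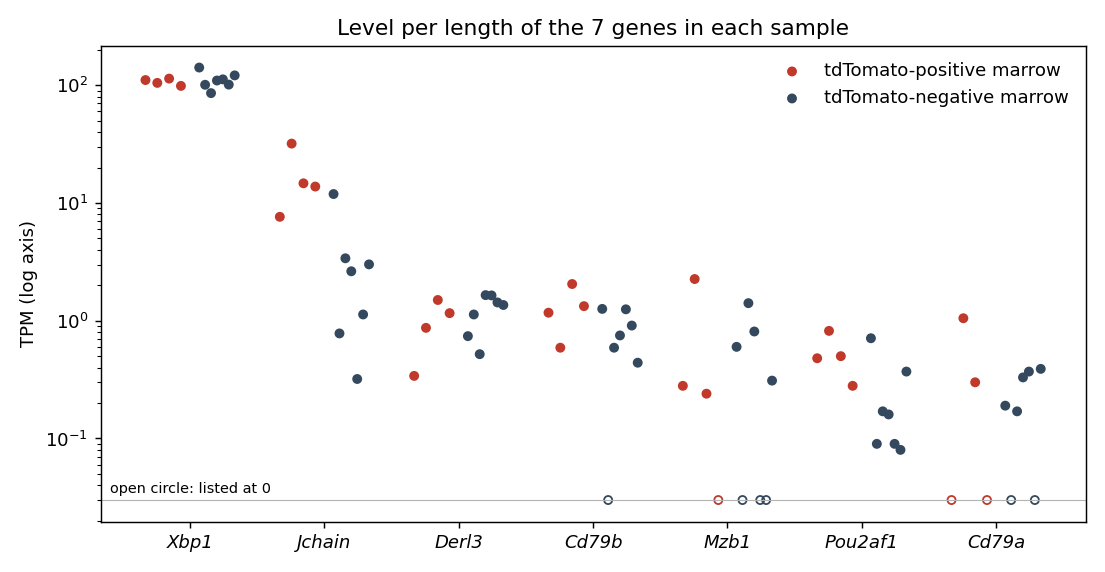
TPM of the 7 genes in each sample on a log axis, ordered by their mean over all samples, tdTomato-positive marrow left of tdTomato-negative marrow within each gene; open circles are samples listed at 0. Xbp1 lies near 100 TPM throughout, Jchain spans 0.32 to 31.9 TPM, and the other genes lie at or under 2.26 TPM.

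The label of the set was checked against markers. Of 13 immunoglobulin constant genes on a list, 0 are in the tables used here, so antibody transcripts were not analysed here. Tnfrsf17, the survival receptor of plasma cells, had 3 to 5 counts in positive and 0 to 6 in negative samples. Prdm1 and Irf4, transcription factors that drive plasma cell fate and are also used in epidermis and other immune cells, were clearly present. Prdm1 averaged 120 ± 12.1 CPM after positive and 139 ± 28.4 CPM after negative marrow, and Irf4 averaged 11.4 ± 1.71 and 10.2 ± 2.76 CPM (SD, n = 4 and n = 7). Among defining B cell genes, Ms4a1 had 0 to 2 counts in positive and 0 to 1 in negative samples. Pax5 had 1 count in positive replicate 4 and 0 counts in the other 10 samples. Ms4a1, Pax5, Mzb1 and Cd79a were thus near the floor while Prdm1, Irf4, Sdc1 and Cd22 were not, and the set is called by its genes rather than by a cell type.

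In the list of other genes of antibody-secreting cells, 0 of 12 tested members passed, 8 had a fitted log2 fold change above 0 and the median was 0.05. Without single samples that median ran from -0.05 (without positive replicate 1) to 0.14 (without positive replicate 4). With the hair score in the fit it was -0.03. The median of all tested genes was -0.01, with 48.6% above 0. The members with the smallest p were Sdc1, a syndecan of plasma cells and of keratinocytes, Edem1, a degradation factor of the endoplasmic reticulum, and Cd93, a receptor of endothelium and plasma cells. Sdc1 had 500 ± 38.6 CPM (SD, n = 4) and 679 ± 103 CPM (SD, n = 7). Its fitted difference was -0.44 ± 0.12 (log2, SE), with all positive samples (453 to 543 CPM) below all negative samples (544 to 831 CPM). In 155 tested genes (1.06%) the groups did not overlap in that direction. These included Edem1, with 122 to 131 CPM in positive and 133 to 154 CPM in negative samples. They also included Creld2 of the folding list described below, with 17.2 to 22.2 and 22.7 to 31.5 CPM. For Sdc1 the lowest negative values, 544 and 554 CPM, were in replicates 7 and 1, with 0.0449% and 0.299% hair counts. The other negative samples, with 2.82% to 5.11%, had 663 to 831 CPM. Positive replicate 4, with 1.61%, had the highest positive value, 543 CPM. The part of hair content in the Sdc1 difference was not tested. Edem1 had 126 ± 3.72 and 144 ± 8.17 CPM, and Cd93 had 80.3 ± 12 and 56.7 ± 14.3 CPM in the positive and negative groups.

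In the B cell list, 0 of 9 tested members passed, 7 lay above 0 and the median log2 fold change was 0.45. That median ran from 0.32 (without positive replicate 1) to 0.57 (without positive replicate 3), and from 0.24 to 0.51 over other settings. An unadjusted p under 0.05 in edgeR's test was found for 3 members higher and 2 lower in the positive group. Of all tested genes, 7.05% were higher and 9.73% lower at that threshold. It was reached by 2 antibody-secreting cell genes higher and 3 lower. For 8 of 12 macrophage, 6 of 15 receptor signalling, 4 of 11 T cell and 4 of 12 plasmacytoid dendritic genes it was higher, with 0 lower in each. Ebf1, a factor of early B cells that is also expressed in stromal cells, had 41.1 ± 3.63 CPM (SD, n = 4) and 28 ± 4.41 CPM (SD, n = 7). All its positive samples (35.86 to 44.17 CPM) lay above all its negative samples (21.47 to 34.04 CPM). Such a separation, with the positive samples higher, was found in 89 tested genes (0.61%). The fitted difference of Ebf1 was 0.55 ± 0.12 (log2, SE), and edgeR's adjusted p was 0.248. Its 327 to 349 counts per positive sample stood beside at most 2 counts of Ms4a1. Cd72 had 7.24 ± 2.84 and 4.62 ± 0.723 CPM and Cd22 had 4.03 ± 2.12 and 2.14 ± 0.57 CPM in the positive and negative groups. Both are inhibitory receptors of B cells. Cd22 had 12 counts in positive replicate 4, fewer than in any negative sample. Tnfrsf13c, the BAFF receptor, named after its values were seen, was low, with 1 to 7 counts in positive and 1 to 26 counts in negative samples. It was lower in the positive group, with 0.428 ± 0.390 and 1.49 ± 1.22 CPM and a fitted difference of -1.77 ± 0.80 (log2, SE). Blk, a B lineage kinase also named afterwards, had 2 to 14 counts in positive samples, and in negative samples 28 counts in replicate 1 and 1 to 10 in the others.

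Downstream of the receptor pair, 0 of 15 tested signalling genes passed, 14 lay above 0 and the median log2 fold change was 0.27. Prkcb, a kinase that links the receptor to NF-kappaB, had 40.2 ± 4.85 and 29.7 ± 6.56 CPM in the positive and negative groups. Inpp5d, a lipid phosphatase of blood cells, had 46.7 ± 16.7 and 32.4 ± 3.85 CPM, and Cd81, a tetraspanin of many cell types, had 184 ± 33.1 and 140 ± 21.7 CPM. Markers of macrophages lay in the same direction, with 12 of 12 tested above 0, 0 that passed and a median of 0.56, which was 0.30 without positive replicate 1. Their summed level was 898 to 2279 CPM in positive and 774 to 1281 CPM in negative samples. Cd68, a lysosomal protein of macrophages, had 45.7 ± 19.4 and 29.5 ± 5.20 CPM, C1qc, a complement chain, had 102 ± 39.1 and 69.8 ± 9.67 CPM, and Adgre1, the F4/80 antigen, had 75.1 ± 36 and 49.6 ± 6.96 CPM in the positive and negative groups. Their part in the receptor signalling list was not tested.

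**Figure D5:**
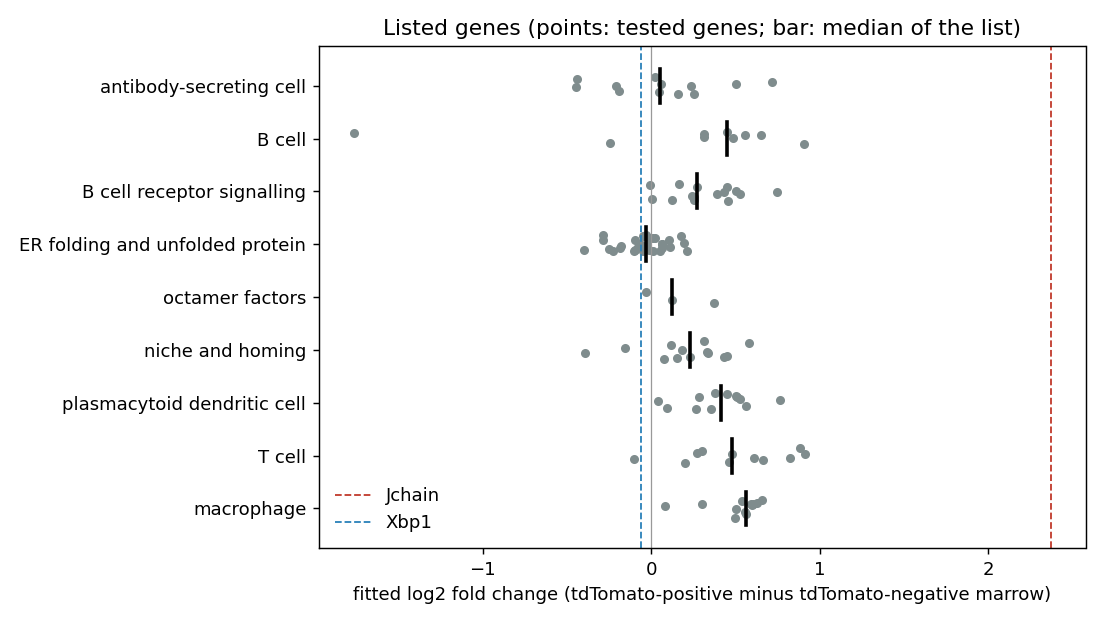
Fitted log2 fold change, positive minus negative, of the tested genes of 9 lists (points) with the median of each list (bar); dashed lines mark Jchain at 2.37 and Xbp1 at -0.06. No listed gene reaches Jchain, and none passed the adjusted threshold.

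Genes of protein folding and of the unfolded protein response, a list that includes known targets of Xbp1, gave 0 passing genes of 30 tested, 12 of them above 0, and their median log2 fold change was -0.03, or -0.05 to -0.0046 without single samples (lowest without positive replicate 1, nearest 0 without negative replicate 5). The members with the smallest p had lower means in the positive group: Creld2 with 19.8 ± 2.34 and 26.1 ± 2.90 CPM, Hyou1 with 130 ± 6.34 and 158 ± 18.5 CPM, and Hspa5 with 538 ± 84.4 and 657 ± 66.1 CPM in the positive and negative groups. Creld2 is a secreted stress protein, and Hyou1 and Hspa5 are chaperones of the endoplasmic reticulum. Of the listed octamer-binding factors, 0 of 3 tested passed, with a median of 0.12 that ran from 0.03 (without negative replicate 2 or positive replicate 1) to 0.30 (without positive replicate 4). Pou2f2, the form typical of B cells, had 2.73 ± 0.837 and 2.52 ± 0.729 CPM. The broadly expressed Pou2f1 had 65.7 ± 11.7 and 67.2 ± 5.33 CPM, and Pou2f3, a factor of epidermis and tuft cells, had 60.5 ± 16.9 and 46.7 ± 14.2 CPM.

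Ligands and receptors of survival and homing gave 0 passing genes of 13 tested, 11 of them above 0, with a median log2 fold change of 0.23. That median was 0.0053 without positive replicate 1, 0.43 without positive replicate 3 and 0.35 without positive replicate 4. Ccr9, a homing receptor, had 7.67 ± 1.21 and 5.62 ± 1.30 CPM, Tnfsf13, the ligand APRIL, had 6.71 ± 2.54 and 4.47 ± 1.63 CPM, and Ccr10, a skin and mucosa homing receptor, had 1.49 ± 0.357 and 1.95 ± 0.369 CPM in the positive and negative groups. Markers of plasmacytoid dendritic cells, another cell type in which Jchain and Derl3 transcripts can occur, lay above 0 in 12 of 12 tested genes, and 0 passed. Their median was 0.41, and 0.19 without positive replicate 1. Over all 14 genes of the list, with no gene filtered out, it was 0.37. Siglech, a receptor typical of that cell type, had 22, 2, 23 and 10 counts in positive replicates 1 to 4 and 4 to 28 counts in the negative samples. Its lowest value of all, 2 counts, was in the sample with the highest Jchain. Its highest, 28 counts, was in negative replicate 1, which was also the highest negative sample for Jchain. Ly6d had 302 ± 48.1 and 251 ± 47.0 CPM and Cox6a2 had 20.4 ± 3.70 and 14.4 ± 7.79 CPM in the positive and negative groups. Pacsin1, which did not pass the filter on low counts, was lower in the positive group, with 0.440 ± 0.252 and 0.796 ± 0.363 CPM. The part of that cell type in the Jchain counts was not tested. Among the others, Tlr7 had 24.5 ± 10.3 and 14.3 ± 3.32 CPM and Tcf4 had 213 ± 26.3 and 166 ± 28.5 CPM, and both are also expressed outside that cell type. Among T cell genes 0 of 11 tested passed, 10 lay above 0 and the middle value was 0.48. Their summed level was 41.2 to 73.1 CPM in positive and 26.9 to 55.5 CPM in negative samples. Cd4, a coreceptor of helper T cells, had 13.4 ± 4.82 and 7.59 ± 1.69 CPM, Cd28, a costimulatory receptor, had 6.20 ± 1.33 and 3.29 ± 1.29 CPM, and Cd3g, a chain of the T cell receptor complex, had 4.66 ± 1.62 and 2.54 ± 0.974 CPM in the positive and negative groups.

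In the lists of other skin components 0 genes passed. Of 23 tested hair follicle genes 0 lay above 0, with a median log2 fold change of -2.36, which was -4.43 without positive replicate 4. With the hair score in the fit the median was 0.06. That score averages these same 23 genes, so a median near 0 was set in advance and nothing is read from it. Hoxc13, a factor of the hair shaft, had 26.5 ± 20.4 and 77.7 ± 43.2 CPM in the positive and negative groups. Krt72, a keratin of the inner root sheath, had 39.1 ± 50.9 and 368 ± 294 CPM, and Foxn1, a factor of hair keratinization, had 16.9 ± 12.6 and 41.3 ± 23.4 CPM. Mast cell genes had a median of 0.12 with 7 of 8 above 0, and it ran from 0.0069 (without negative replicate 3) to 0.60 (without negative replicate 1). With the hair score in the fit it was -0.28, and with a replicate block over replicates 1 to 4 it was -0.01. Kit, the receptor of stem cell factor, had 26.0 ± 2.74 and 35.1 ± 10.0 CPM, Hdc, the histamine-forming enzyme, had 44.3 ± 46.5 and 22.8 ± 12.8 CPM, and Ms4a2, a chain of the IgE receptor, had 7.76 ± 1.17 and 5.83 ± 3.49 CPM in the positive and negative groups. Sebaceous genes had a median of 0.01 with 6 of 12 above 0, from -0.24 (without positive replicate 3) to 0.18 (without negative replicate 1). It was -0.29 with the hair score. Mc5r, a melanocortin receptor of sebocytes, had 6.63 ± 2.78 and 11.5 ± 2.19 CPM, and the lipid enzymes Dgat2 and Scd3 had 119 ± 12.7 and 70.8 ± 49.9 CPM in the positive group and 99.7 ± 21.9 and 99.3 ± 51.0 CPM in the negative group. Skin genes had a median of 0.10 with 8 of 11 above 0, from 0.06 (without positive replicate 3) to 0.32 (without negative replicate 1). It was -0.06 with the hair score. Pdgfra, a receptor of fibroblasts and the driver of the donor Cre, had 166 ± 32.6 and 123 ± 19.8 CPM, and the epidermal keratins Krt14 and Krt1 had 9028 ± 2244 and 6562 ± 2802 CPM in the positive group and 6709 ± 2264 and 4799 ± 3089 CPM in the negative group. Skeletal muscle genes had a median of 0.42 with 6 of 6 above 0, from 0.24 (without positive replicate 3) to 0.63 (without negative replicate 7). It was 0.19 with the hair score. Of these contractile genes, Tnnc2 had 162 ± 36.3 and 119 ± 45.5 CPM, Myl1 had 209 ± 46.6 and 153 ± 68.1 CPM, and Tnnt3 had 247 ± 68.7 and 188 ± 74.2 CPM in the positive and negative groups. Their part in the levels of Jchain was not tested.

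The genes with a pattern most like that of Jchain were ranked by Pearson r of log2 CPM over the 11 samples, a description over samples that also differ in depth and hair content. The 10 highest were Ino80c, Sgms1, Aff1, Krt24, Palm2, Plin1, Dapk1, Fmn2, Pcdhb14 and C2, with r from 0.887 to 0.919. Without positive replicate 2 and negative replicate 5, the samples farthest from the median, their r was 0.818 to 0.969. In all, 127 tested genes reached r of 0.8, with the members and predicted genes left out of the count. Among the 10 named, fitted differences ran from 0.20 to 1.13 (log2). Ino80c had 28.8 ± 0.754 CPM (SD, n = 4) and 24.5 ± 2.03 CPM (SD, n = 7), and Plin1 had 46.9 ± 10.0 and 29.2 ± 7.88 CPM. For Xbp1 the 5 highest were Clint1, Zeb2os, Scyl2, Cyp1a1 and Pisd, with r from 0.869 to 0.908, which was 0.5 to 0.793 without negative replicates 1 and 3.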

How the data were processed

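Total RNA of 11 back skin samples, 4 after tdTomato-positive and 7 after tdTomato-negative marrow, was sequenced on a NextSeq2000 after removal of ribosomal RNA, per the labels' protocols. Per the submitters' processing notes, reads went through bcl2fastq, Trim Galore and RSEM on GRCm38. The sources used here name no version, aligner or strand setting. Per the file headers, the deposited expected counts are RSEM estimates per gene, without normalization. The TPM deposited by the authors are relative to effective length, and the deposited FPKM were not used. Expected counts were rounded, genes were filtered with filterByExpr (minimum count 10, minimum total 15; 14588 of 24411 genes remained, 2 of them members), scaled with TMM and tested with edgeR 4.0.16 glmQLFit and glmQLFTest (legacy mode, R 4.3.3) for the group effect (positive minus negative, no covariate), with Benjamini-Hochberg adjustment at 0.05. Each standard error was taken as the fitted difference over the root of its F value. CPM use the TMM-scaled totals, and log2 CPM a prior count of 2. Alternatives used DESeq2 1.42.0, limma 3.58.1 and the settings in the closing section. The scripts were tested on simulated data, where edgeR made 4 false calls among 136 and DESeq2 20 among 172. There limma-voom with sample quality weights made 5 among 137, but no sample was simulated with lower quality. No 2 libraries were copies, with a chi-square per degree of freedom of at least 3.43.

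The members and the 15 lists (213 symbols, 199 in the files) were chosen with earlier results of these data known. From each list the 3 tested genes with the smallest p were named, with the 10 genes most like Jchain and the 5 most like Xbp1, skipping predicted genes. Sequences are from RefSeq for GRCm38.p6, and no protein sequence was used here. One listed gene is not reported here.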

Additional observations from a re-analysis of the deposited data

Results flagged for a closer look

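Of 184 sets of group values examined, 23 had a sample far from the rest of its group. About 9 (1 in 20) would be flagged by chance if the sets were independent and normally distributed. The sets share the same samples and some hold counts near 0, so no excess over chance is read from these numbers. Among the members the flagged values were Jchain in negative replicate 1, with 13.9 CPM against 0.404 to 4.45 CPM in the other negative samples, and Mzb1 in positive replicate 2, with 1.02 CPM where the remaining positive skins had 0 to 0.125 CPM.

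Negative replicate 1 stood apart most often. It had 14.5 CPM of Pigr against 0 to 0.697 CPM in the other negative samples, 3.60 CPM of Blk against 0.139 to 1.35, 3.35 CPM of Cd22 against 1.73 to 2.26, and 43.9 CPM of Prkcb against 25.2 to 30.7. It also had 227 CPM of Tcf4, 72.1 CPM of Sgms1, 5.54 CPM of Zeb2os, 13.1 CPM of Ms4a2, 7658 CPM of Col1a1 and 533 CPM summed over the mast cell list, the highest of the negative group in each. Its 12 counts of Y-linked genes, which no comparison used, stood against 0 in the other 10 samples. The cause was not tested.

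In other negative samples, replicate 7 had 31.2 CPM of Cox6a2, 291 CPM of Myl1 and 3167 CPM summed over the muscle list, replicate 2 had 48.4 CPM of Hdc, and replicate 4 had 0.115 CPM of Ms4a1, where the others were at 0. Among positive samples, replicate 1 was highest for Hdc with 114 CPM and for Hyou1 with 139 CPM. Replicate 2 was lowest for Ms4a2 with 6.00 CPM. Replicate 4 was highest for Hoxc13 with 56.9 CPM and for Pax5 with 0.135 CPM, and lowest for Krt5 with 3056 CPM.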

How the results depend on the processing

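Jchain kept a log2 fold change above 0 in all 23 alternatives. It ranged from 1.78 to 3.84 over other tools and settings, with edgeR, DESeq2 or limma adjusted p from 0.0211 to 0.65, and from 1.84 to 3.15 without single samples, with adjusted p from 0.098 to 0.525. It passed in 1 of them, limma-voom with sample quality weights (chosen after results were known), which called 1 of the tested members and 2093 genes in all; DESeq2 called 83 genes and none of the members. Without single samples edgeR called 0 to 3 genes (1 without negative replicate 4, 3 without negative replicate 7) and 0 members, and 1 to 2 of the tested members lay above 0 (2 without negative replicate 1). With no filter 5 of 7 members lay above 0. Xbp1 ranged from -0.10 to 0.0042 without single samples and changed sign without negative replicate 1; the cause was not tested. The r of the deviations of same-numbered samples was -0.04, -0.14, -0.05 and 0.34, so no pairing by number was seen. With 4 such values and hair content that differed between samples, this check cannot exclude a pairing. With the replicate block over replicates 1 to 4, Jchain was at 2.02, Xbp1 at -0.04 and 0 genes were called, and without the block Jchain was at 1.87 in these 8 samples. Of 322 list medians under alternatives 8 moved by 1 SD or more, 5 of them medians of the B cell list, and 14 changed sign. The sign changes were in the antibody-secreting cell, folding, mast cell, hair follicle, sebaceous and skin lists. With the hair score, the median was 0.35 for B cell, 0.22 for receptor signalling, 0.28 for plasmacytoid dendritic, 0.44 for T cell and 0.38 for macrophage genes. It was -0.05 for folding genes, 0.07 for octamer-binding factors and 0.30 for survival and homing genes. Depth limits Mzb1, Cd79a, Cd79b, Derl3 and Pou2af1, where no difference was detected at 0 to 12 counts per sample.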
